A study of Homo sapiens with 8 samples.

Results

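Promoter windows of transcripts that carry a clone name or a LINC number were examined for trimethylated lysine 9 of histone H3 (H3K9me3). They are the rows of both deposited promoter tables on chromosomes 1 to 22 whose gene name starts with LINC and a digit, with RP, a number and a hyphen, or with CTA, CTB, CTC or CTD and a hyphen. No row had to be left out as a pseudogene. The rule gave 6108 windows of 4468 genes, which is 16.0% of the 38157 windows in the tables. The windows were split into 472 near windows, whose edge lay within 5 kb of a window of a gene with another kind of name, and 5636 far windows.

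The cells were SiHa, a widely used line grown from a cervical squamous carcinoma, plated in a transwell, where cells can crawl through a porous membrane. The 4 groups were H3K9me3 chromatin immunoprecipitation (ChIP) of migrated cells, H3K9me3 ChIP of non-migrated cells, input of migrated cells and input of non-migrated cells, with n = 2 libraries in each. Migrated cells had crossed the membrane 10 h after seeding, non-migrated cells had not, and input is sonicated chromatin without antibody. All groups come from 1 cell line without a genetic change or drug, so the 2 sets replicate an experiment on this line and not different tumours, and every ChIP used 1 antibody.

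H3K9me3 is a mark of silenced chromatin. SUV39H1, SUV39H2 and SETDB1 write it, HP1 proteins bind it, and it covers repeats, gene-poor regions and clusters of zinc finger genes. Clone names such as RP11-745L13.2 are placeholders built from the genomic clone in which a transcript was annotated, with RP for the Roswell Park libraries and CT for the California Institute of Technology libraries. LINC numbers are official symbols of long intergenic non-protein-coding RNAs, transcripts that often are restricted to few tissues and of which only a small number have a described function. A promoter window under such a name is thus often placed far from known genes.

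Members were matched by symbol to the RefSeq promoter table (GRCh38.p14), and the matched LINC genes with the highest and the lowest H3K9me3 over input are shown, to let the 2 ends of the range be read beside each other. They were chosen after the values were seen, from called genes with a mean of at least 10 input reads, the high ones with log2 above 0 in all 4 library pairs. Each sequence runs 5′ to 3′ on the strand of the gene, and capitals mark CG dinucleotides, where DNA methylation can occur. The deposited windows are placed in hg19, so that the coordinates of the sequences and of the windows are not on 1 scale, and whether a sequence lies inside its window was not tested. The first 4 are those with the highest values.

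LINC00273: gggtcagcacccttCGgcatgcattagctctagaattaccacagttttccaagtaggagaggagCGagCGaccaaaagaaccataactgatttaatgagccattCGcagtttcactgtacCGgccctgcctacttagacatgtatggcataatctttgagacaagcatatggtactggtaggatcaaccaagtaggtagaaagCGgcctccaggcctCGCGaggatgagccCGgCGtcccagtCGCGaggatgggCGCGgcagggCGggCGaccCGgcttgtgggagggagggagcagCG

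LINC00355: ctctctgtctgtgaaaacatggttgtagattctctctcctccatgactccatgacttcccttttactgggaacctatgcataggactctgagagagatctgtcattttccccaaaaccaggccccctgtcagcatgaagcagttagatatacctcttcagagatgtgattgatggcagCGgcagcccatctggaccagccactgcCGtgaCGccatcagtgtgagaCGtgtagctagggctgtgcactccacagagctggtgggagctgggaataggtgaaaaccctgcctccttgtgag

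LINC00417: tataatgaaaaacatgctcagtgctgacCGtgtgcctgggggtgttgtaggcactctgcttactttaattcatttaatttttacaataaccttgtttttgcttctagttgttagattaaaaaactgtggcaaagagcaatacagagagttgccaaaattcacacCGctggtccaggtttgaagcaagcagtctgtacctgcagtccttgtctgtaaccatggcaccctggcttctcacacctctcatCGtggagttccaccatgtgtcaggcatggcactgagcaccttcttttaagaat

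LINC00354: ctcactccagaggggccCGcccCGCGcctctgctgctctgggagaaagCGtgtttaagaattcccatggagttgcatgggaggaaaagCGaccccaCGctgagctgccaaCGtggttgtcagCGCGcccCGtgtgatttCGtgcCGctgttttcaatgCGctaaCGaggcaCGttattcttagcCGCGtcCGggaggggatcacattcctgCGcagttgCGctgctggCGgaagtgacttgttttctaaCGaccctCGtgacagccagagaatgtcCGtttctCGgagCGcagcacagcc

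The other 3 are those with the lowest values. LINC00263 stands in the RefSeq table under its later symbol, OLMALINC.

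LINC00263: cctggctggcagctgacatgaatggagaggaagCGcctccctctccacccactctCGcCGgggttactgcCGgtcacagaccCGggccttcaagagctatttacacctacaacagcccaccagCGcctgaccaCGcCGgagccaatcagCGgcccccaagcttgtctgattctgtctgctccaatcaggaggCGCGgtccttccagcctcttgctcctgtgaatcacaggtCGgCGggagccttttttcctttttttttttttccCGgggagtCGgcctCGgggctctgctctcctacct

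LINC00482: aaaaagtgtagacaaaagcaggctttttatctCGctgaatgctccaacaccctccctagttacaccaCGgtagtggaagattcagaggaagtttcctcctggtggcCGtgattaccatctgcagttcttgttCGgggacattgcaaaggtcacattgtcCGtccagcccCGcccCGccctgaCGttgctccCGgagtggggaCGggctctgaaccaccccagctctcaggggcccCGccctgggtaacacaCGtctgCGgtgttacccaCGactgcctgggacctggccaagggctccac

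LINC00449: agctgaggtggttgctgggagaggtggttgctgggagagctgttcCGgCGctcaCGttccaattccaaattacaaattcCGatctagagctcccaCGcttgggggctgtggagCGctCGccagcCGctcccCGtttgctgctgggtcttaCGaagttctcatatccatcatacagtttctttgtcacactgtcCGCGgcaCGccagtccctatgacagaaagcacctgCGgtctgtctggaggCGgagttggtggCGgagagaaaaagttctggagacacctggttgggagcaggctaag

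These sequences are chr16:34159924-34160223 on the minus strand for LINC00273, chr13:64075962-64076261 (minus) for LINC00355, chr13:18740050-18740349 (minus) for LINC00417, chr13:111893128-111893427 (plus) for LINC00354, chr10:100373326-100373625 (plus) for LINC00263, chr17:81309199-81309498 (minus) for LINC00482 and chr13:99501014-99501313 (minus) for LINC00449, all in GRCh38.p14. Among the 4 highest, LINC00273 held 18 CG dinucleotides in 300 bases, LINC00355 held 4, LINC00417 held 3 and LINC00354 held 26. Among the 3 lowest, LINC00263 held 16, LINC00482 held 14 and LINC00449 held 16. Both of the sequences with few CG dinucleotides belong to high windows, but the 26 of LINC00354 exceed those of every low one. As these genes are few and were picked by their values, no conclusion about the range is drawn from the counts. Base composition was not compared across the windows, because a RefSeq promoter was found for 114 of the 4251 genes tested (2.68%), and for 103 of 147 LINC genes (70.1%). That is under the 80% such a comparison needs, which makes it void.

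The deposited windows of these genes held the reads that put them at the ends of the range. The LINC00355 window (chromosome 13, 64650044 to 64652144 in hg19) held 7 and 114 H3K9me3 reads in migrated cells of sets 1 and 2, and 4 and 78 in non-migrated cells, beside 8 and 43 input reads in migrated and 1 and 36 in non-migrated cells. The LINC00417 window (chromosome 13, 19317377 to 19319477) held 4 and 83 H3K9me3 reads in migrated and 8 and 55 in non-migrated cells, beside 7 and 27 and then 2 and 31 input reads in the same order. The LINC00354 window (chromosome 13, 112552299 to 112554399) held 6 and 63, and 7 and 44, H3K9me3 reads, beside 14 and 45, and 0 and 33, input reads. In all 3 the H3K9me3 libraries of set 2 held more reads than their inputs, although those inputs were the deeper libraries. The non-migrated input of set 1 held 0 reads at LINC00354, 1 at LINC00355 and 2 at LINC00417. Their log2 in that pair thus rests on a denominator of very few reads. The LINC00263 window (chromosome 10, 102131372 to 102133472) held 0 and 1 H3K9me3 reads in migrated and 1 and 0 in non-migrated cells, beside 19 and 33, and 10 and 46, input reads. The LINC00482 window (chromosome 17, 79282948 to 79285048) held 0 and 5, and 0 and 8, beside 27 and 78, and 17 and 98. In both windows every H3K9me3 library lay under every input library, but the H3K9me3 libraries of set 1 were shallower than every input. The LINC00273 and LINC00449 windows are given with the named windows.

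The members are mostly transcripts about which the tables say nothing. RP names made up 5288 windows of 3877 genes, 4435 of the windows with the prefix RP11, CT names made up 616 windows of 435 genes, and LINC numbers made up 204 windows of 156 genes. No description was given for 5656 windows, and 204 were described as noncoding. The remaining 248 windows, of 161 genes, carried other descriptions, 229 of them an uncharacterised or otherwise unnamed protein, and the RP11-566K11.2 windows were described as a melanocyte-stimulating hormone receptor. RefSeq matched 160 of the genes, 147 as long noncoding RNA, 10 as protein coding and 3 as transcribed pseudogenes. The label noncoding therefore does not hold for every member, and for most it cannot be checked from the tables.

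Most members lay apart from the windows of other-named genes, but so did most other-named windows from each other. Of 30385 other-named autosomal windows, 26862 lay further than 5 kb from a window of a different other-named gene. Of the 472 near windows, 95 overlapped a window of an other-named gene and 377 had a gap of up to 5 kb. Of the far windows, 2478 lay 5 to 50 kb away, 2435 lay 50 to 250 kb away and 723 lay over 250 kb away, and the median gap of far windows was 61.8 kb. The share of near windows was 9.31% for LINC, 7.72% for RP and 7.31% for CT names. The nearest other-named window belonged to a RefSeq protein-coding gene for 344 near windows and lay on the opposite strand for 306. Near windows also lay in denser surroundings, with a median of 4 other-named windows within 250 kb of far members and 9 of near members. The libraries do not tell a promoter of a clone-named transcript from that of a neighbour it overlaps: 133 members overlapped a window of another gene, and 751 overlapped a second window of their own gene.

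The ChIP libraries differed in depth, with 88028 and 984835 H3K9me3 reads in all windows for migrated cells of sets 1 and 2, and 164766 and 1137376 for non-migrated cells. Inputs held 684949 and 1679874 reads for migrated and 388191 and 1729061 for non-migrated cells. Per the labels' protocols, set 1 was prepared with another kit and had many duplicates, so that kit and set cannot be told apart, while each set holds both fractions. The median window held 1 read in the migrated H3K9me3 library of set 1, and 25.0% of members had no read there, against 3.44% in set 2. Enrichment below is log2 of H3K9me3 over input, averaged over fractions, with limma's SE from 2 sets. It is relative to the centre set by library scaling (TMM), called the centre. A window is called enriched above it or lower below it at an adjusted p of at most 0.05 by limma over all 36440 tested windows. The median of all tested windows lay at -0.35, and it moved between -0.44 and 0.00 with the filter, the scaling and the libraries used, and to -1.30 with the authors' constants, so medians are also given relative to it.

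Clone-named and LINC windows carried more H3K9me3 than the typical window of the tables. Of 5800 members with enough reads to test, 1312 (22.6%) were enriched, where 15.8% of all tested windows were, and 1351 (23.3%) were lower, where 35.2% of all were. The median log2 over input was 0.10 for members, which is a 1.07-fold ratio, against -0.35 for all windows. A further 308 members had too few reads to test. The median of other-named autosomal windows was -0.50, with 13.7% enriched and 38.8% lower. By chromosome, the member median lay above that of the other-named windows on 21 of 22 autosomes, chromosome 21 being the exception (-0.04 for members, 0.04 for other-named windows). The number of enriched members became 2064 when the migrated H3K9me3 library of set 1 was left out and 715 when the migrated input of set 1 was, and the number of lower members became 816 without the non-migrated input of set 2. With the authors' constants in place of TMM there were 71 enriched and 2300 lower members, and set 1 alone gave 46 and 76.

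Far windows lay above near windows. Of 5361 far members tested, 1254 (23.4%) were enriched and 1178 (21.97%) lower, with a median log2 of 0.15, which is 0.49 above the median of all windows. Of 439 near members tested, 58 (13.2%) were enriched and 173 (39.4%) lower, with a median of -0.63, which is 0.29 below the median of all windows (near minus all, -0.29). The medians of far members were 0.00 and 0.28 in migrated cells of sets 1 and 2 and 0.10 and 0.23 in non-migrated cells. Those of near members were -0.44 and -0.56 in migrated and -0.45 and -0.44 in non-migrated cells. Far medians thus lay above near medians in all 4 pairs of libraries, and on 17 of the 18 chromosomes with at least 5 near members tested. Windows are not replicates, and no test was made of this difference. The far median stayed 0.42 to 0.55 above that of all windows in every setting but set 1 alone (0.23). The order of the enriched shares was not as firm: it turned round with the authors' deposited constants (1.16% of far, 2.05% of near) and in set 1 alone (2.60% of far, 5.41% of near).

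**Figure D1:**
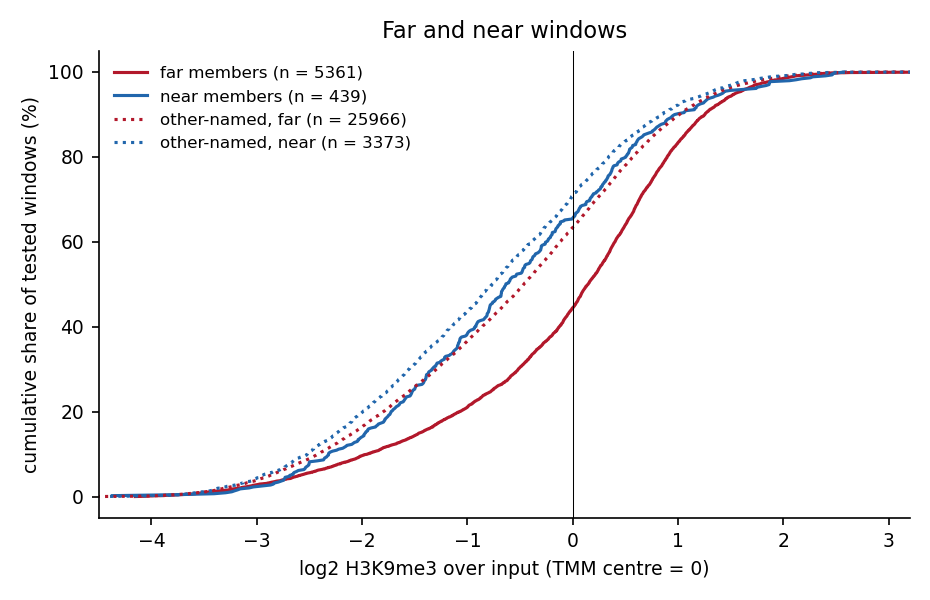
Cumulative share of tested windows (%) against log2 H3K9me3 over input, with 0 at the centre set by library scaling, for far and near members (solid lines) and for other-named windows split by the same 5 kb distance (dotted lines). The line of far members runs to the right of the other 3 up to about the highest values, with a median of 0.15, while near members, with a median of -0.63, lie among the other-named windows.

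Windows of other-named genes showed the same order with a smaller gap. Those further than 5 kb from a window of a different other-named gene had a median of -0.46, with 14.1% enriched and 37.9% lower. Those within 5 kb had a median of -0.76, with 10.6% enriched and 45.6% lower. The sign of log2 was counted in each library pair as well. It was above 0 in both fractions of both sets for 1530 far members (28.5%) and 75 near members (17.1%), where 20.1% of all windows were. It was below 0 in all 4 for 1180 far (22.01%) and 177 near members (40.3%), where 34.9% of all windows were.

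The median of H3K9me3 over input was higher in each wider class of gap to the nearest other-named window. The members' median log2 was -0.93 where the windows overlapped (n = 87 tested), -0.51 with a gap of up to 5 kb (n = 352), -0.15 at 5 to 50 kb (n = 2321), 0.24 at 50 to 250 kb (n = 2327) and 0.62 over 250 kb (n = 713). The share of enriched members was 13.8%, 13.1%, 17.8%, 24.4% and 38.4% in the same classes, and the share of lower members was 50.6%, 36.6%, 31.5%, 17.7% and 4.77%. Across the 5 kb border itself the step was small. The 51 tested members with a gap of 4 to 5 kb had a median of -0.19, and the 75 with a gap of 5 to 6 kb had one of -0.03. Other-named windows had a median of -0.96 where they overlapped a window of a different other-named gene, -0.72 up to 5 kb, -0.71 at 5 to 50 kb, -0.30 at 50 to 250 kb and 0.40 over 250 kb. At overlap the medians of members and other-named windows differed by little, and in each further class the members' median was the higher one. Beyond 250 kb, 38.4% of members and 30.7% of other-named windows were enriched.

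**Figure D2:**
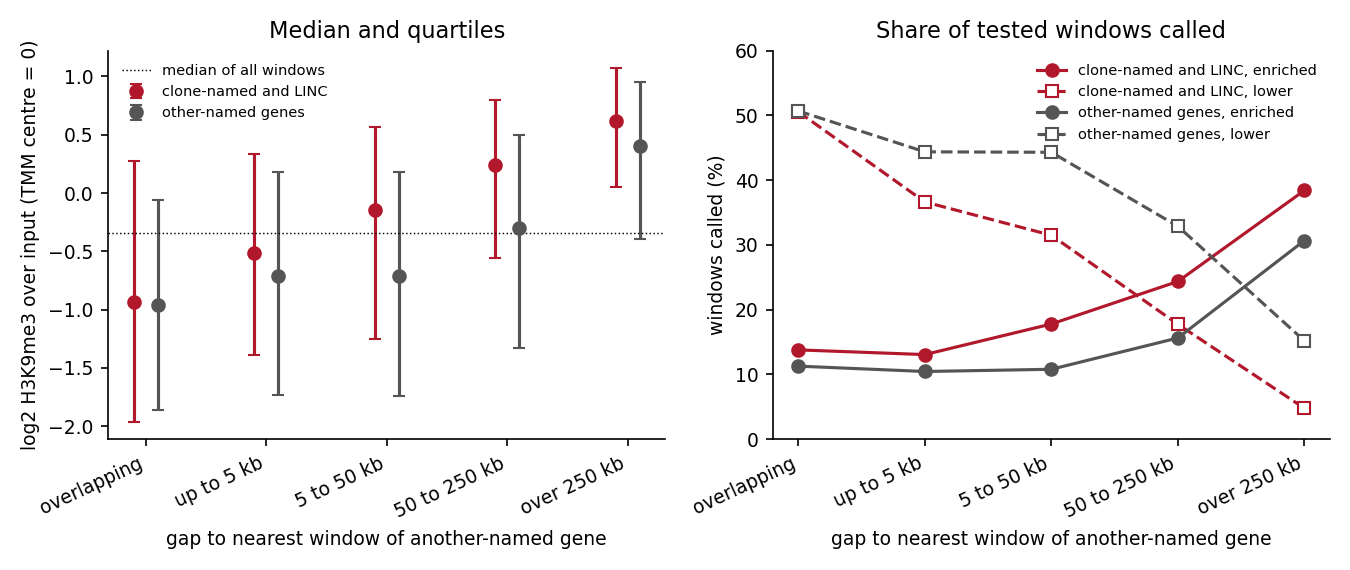
Left, median (points) and quartiles (bars) of log2 H3K9me3 over input by the gap to the nearest window of a gene with another kind of name, for members and for other-named windows. Right, the share of tested windows (%) called enriched (filled circles) or lower (open squares); in members enriched windows outnumber lower ones from 50 kb on, in other-named windows beyond 250 kb.

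Gap, gene density and input reads moved together. Members with at most 1 other-named window within 250 kb had a median log2 of 0.57 and were enriched in 35.9% of cases, and those with 10 or more had a median of -0.65 and were enriched in 11.0%. Within these classes the difference between far and near members was smaller. With 0 or 1 such window the medians were 0.58 (far, n = 1417) and 0.33 (near, n = 13), and with 2 or 3 they were 0.35 (far, n = 1208) and 0.37 (near, n = 47). With 4 or 5 they were 0.04 and -0.16, with 6 to 9 they were -0.25 and -0.56, and with 10 or more they were -0.51 and -0.98. Far medians were thus higher in 4 of 5 density classes and slightly lower in the other one.

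**Figure D3:**
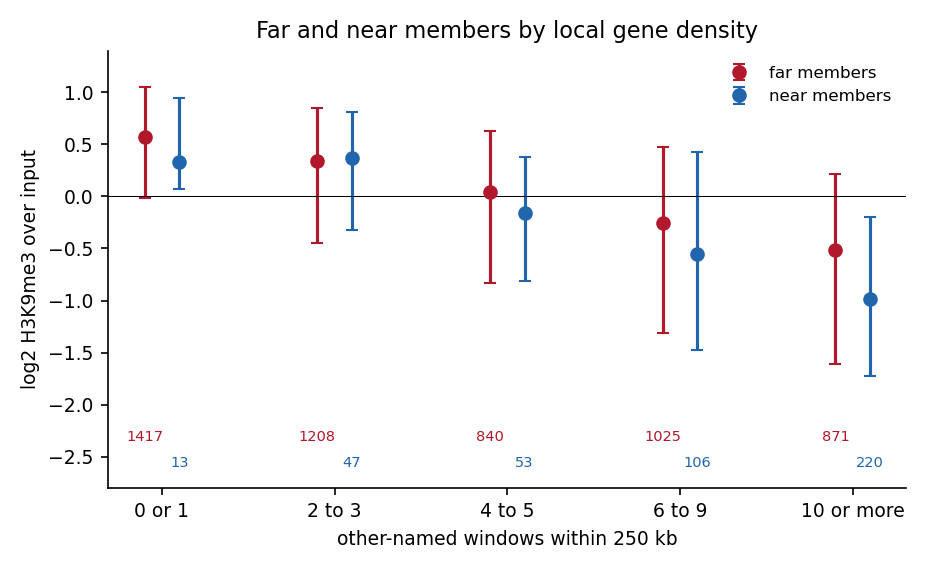
Median (points) and quartiles (bars) of log2 H3K9me3 over input for far and near members, by the number of other-named windows within 250 kb; the numbers at the bottom give the windows tested. The medians with 10 or more such windows, -0.51 for far and -0.98 for near members, lie below those with 0 or 1, 0.58 and 0.33.

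The H3K9me3 reads, summed over 4 libraries, had a median of 57 for far and 45 for near members, and the input reads had one of 100 for far and 122 for near members. Input is also the denominator of the ratio, so a low input raises it by construction. Among windows with up to 85 input reads the medians were 0.41 for far and 0.34 for near members, among those above this and up to 120 they were 0.20 and -0.48, and among those over 120 they were -0.43 and -1.07. Far medians were higher in each class. The part of density and input depth in the difference between far and near windows was not tested.

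Pooled reads gave the same order of far and near members with smaller sizes. Far members held 16.9% and 17.3% of H3K9me3 reads in migrated cells of sets 1 and 2, with 95% Wilson intervals of 16.7 to 17.2% and 17.2 to 17.4%. In non-migrated cells they held 17.4% and 16.3%. Their share of input reads was 14.1% and 13.1% in migrated and 14.3% and 12.8% in non-migrated cells. The ratio of these shares was 1.20 and 1.32 in migrated cells and 1.22 and 1.27 in non-migrated cells. For near members the ratio was 1.05 and 0.952 in migrated and 0.918 and 0.970 in non-migrated cells. Without the 5 near windows with the most H3K9me3 reads it became 0.922 and 0.849 in migrated and 0.846 and 0.891 in non-migrated cells. The pooled value of near members thus leaned on a few windows, the LINC00273 window among them, while far members gave 1.19 and 1.31 in migrated and 1.21 and 1.26 in non-migrated cells without their 5. Wilson intervals cover counting error only.

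**Figure D4:**
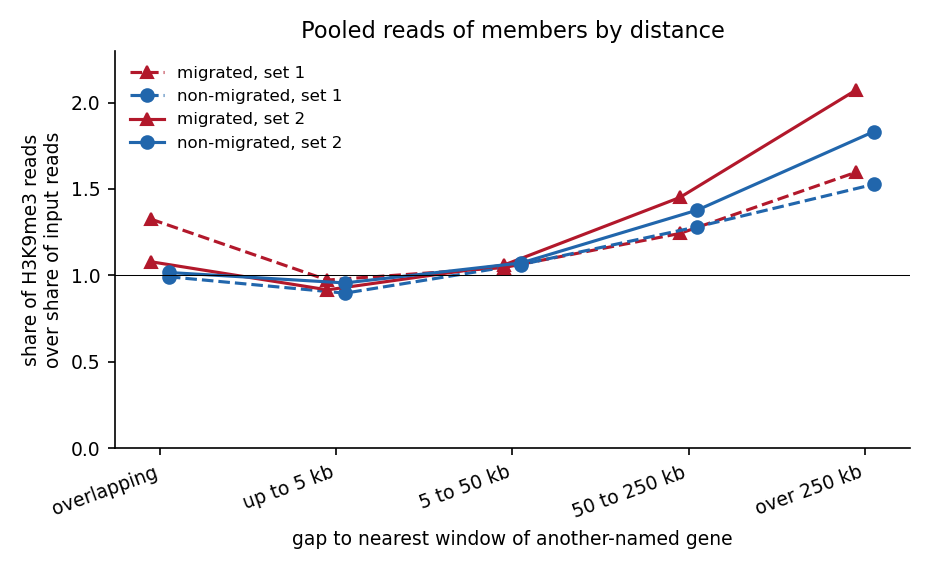
Share of H3K9me3 reads over share of input reads of members (y axis, from 0), by the gap to the nearest other-named window, for migrated and non-migrated cells of set 1 (dashed) and set 2 (solid). All 4 lines are highest beyond 250 kb, at 1.60 and 2.07 in migrated and 1.53 and 1.83 in non-migrated cells. Unlike the medians, they do not rise in each wider class. Overlapping members (1.32 and 1.08 in migrated, 0.992 and 1.02 in non-migrated cells) lie above those up to 5 kb away. The latter stand at 0.973 and 0.916 in migrated and 0.897 and 0.956 in non-migrated cells.

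The 10 far windows with the highest enrichment lay between 24.9 and 269 kb from the nearest other-named window and had 0 to 12 such windows within 250 kb, where the median of far members was 4. RP11-745L13.2 (chromosome 4, 132897007 to 132899107 in hg19, as are all windows) lay 208 kb from the nearest other-named window, that of SNORA70, a small nucleolar RNA. It held 6 and 144 H3K9me3 reads in migrated cells of sets 1 and 2 and 9 and 149 in non-migrated cells, beside 6 and 29, and 1 and 36, input reads. Its log2 over input was 2.95 ± 0.38 (adjusted p = 3.1e-07 by limma), and both set 2 libraries with antibody lay above both inputs. RP11-340I6.7 (chromosome 7, 63359119 to 63361219) lay 143 kb from ZNF727, a zinc finger gene. It held 13 and 261 H3K9me3 reads in migrated and 28 and 229 in non-migrated cells, beside 20 and 81, and 8 and 70, input reads (log2 2.43 ± 0.25, adjusted p = 1.04e-08 by limma). RP11-509A17.3 (chromosome 15, 20547989 to 20550089), 197 kb from GOLGA6L6, a golgin family gene, held 14 and 146 in migrated and 19 and 167 in non-migrated cells, beside 11 and 49, and 5 and 56, input reads (log2 2.57 ± 0.29, adjusted p = 5.37e-08 by limma). In all 3 windows the set 2 ChIP libraries exceeded their inputs, and in set 1 the antibody library of non-migrated cells did.

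The other far windows of the named set lay between 2.37 and 2.89 on the log2 scale. RP11-484H12.1 on chromosome 13 had log2 2.89 ± 0.46 and RP11-546B8.6, 24.9 kb from RANBP17 on chromosome 5, had 2.58 ± 0.32. RP11-119D9.1 on chromosome 11 had 2.47 ± 0.41, RP11-288G11.3 on chromosome 10 had 2.39 ± 0.30 and CTB-33O18.3, 36.8 kb from BOD1 on chromosome 5, had 2.37 ± 0.30. The 2 LINC genes among them were LINC00413 on chromosome 13 (2.44 ± 0.42), with 4 and 108 H3K9me3 reads in migrated and 2 and 87 in non-migrated cells, beside 2 and 20, and 2 and 33, input reads, and LINC00342 on chromosome 2 (2.37 ± 0.36). The non-migrated input of set 1 held 0 reads at RP11-484H12.1 and 1 read at RP11-745L13.2 and RP11-119D9.1, so that their log2 in that pair, and the order among the 10, rests on a denominator of very few reads. RP11-119D9.1, RP11-288G11.3 and LINC00342 no longer passed in set 1 alone, at log2 2.41, 1.57 and 1.43 (adjusted p = 0.0956, 0.0603 and 0.197 by limma).

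**Figure D5:**
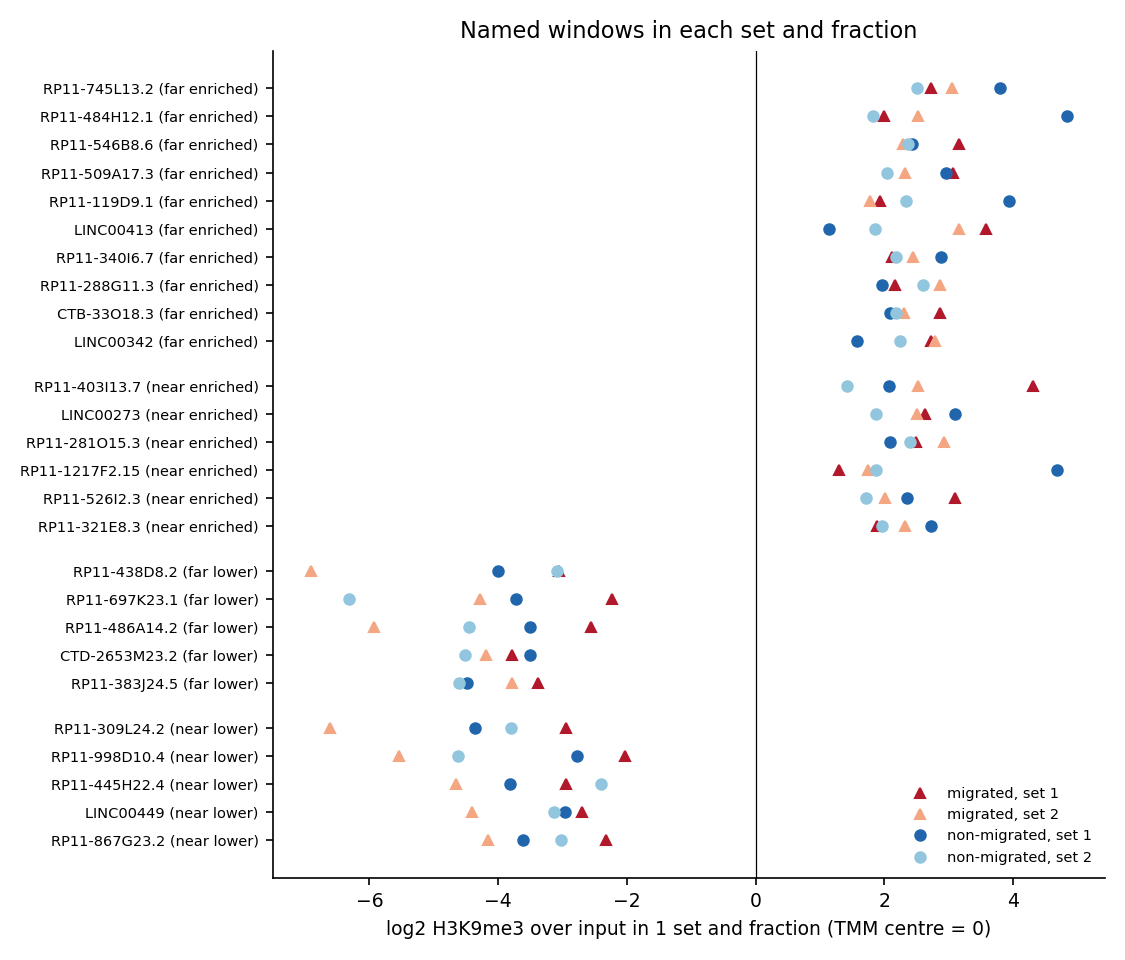
Log2 H3K9me3 over input at the named windows in each set and fraction (migrated as triangles, non-migrated as circles), with 0 at the centre set by library scaling; far and near enriched windows are at the top and far and near lower ones at the bottom. Enriched windows were required to have all 4 points above 0; the 4 points of the lower windows, on which no such rule was set, lie below it.

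Near windows could be as strongly enriched as far ones. RP11-281O15.3 (chromosome 5, 178366192 to 178368292), which overlaps a window of AC104117.1, held 11 and 212 H3K9me3 reads in migrated and 16 and 228 in non-migrated cells, beside 13 and 47, and 8 and 60, input reads (log2 2.46 ± 0.28, adjusted p = 7.23e-08 by limma). The window of another gene (ENSG00000244008, chromosome 7, 63578809 to 63580909) held 12 and 163 in migrated and 19 and 144 in non-migrated cells, beside 22 and 55, and 6 and 51 (log2 2.17 ± 0.27). RP11-403I13.7 on chromosome 1 (2.59 ± 0.36), RP11-1217F2.15 on chromosome 7 (2.40 ± 0.38) and RP11-526I2.3 on chromosome 15 (2.26 ± 0.41) lay next to windows of TRNAE29P, U7 and U6, a transfer RNA pseudogene name and 2 small nuclear RNA names. None of the 6 nearest neighbours carried the symbol of a known protein-coding gene. RP11-403I13.7 did not pass in set 1 alone (log2 2.39, adjusted p = 0.0935 by limma).

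The remaining near gene, LINC00273 on chromosome 16, stands apart by its reads. Its window at 33959652 to 33961752 held 13 and 152 H3K9me3 reads in migrated and 21 and 153 in non-migrated cells, beside 14 and 45, and 5 and 58, input reads (log2 2.50 ± 0.29, adjusted p = 6.25e-08 by limma). Its second window, at 33962403 to 33964503, overlaps the window of RN5-8S2, a ribosomal RNA gene name, and held 108 and 838, and 112 and 753, H3K9me3 reads, beside 97 and 196, and 61 and 236, input reads (log2 2.46 ± 0.12, adjusted p = 1.72e-17 by limma). The inputs of set 2 there lay far above the median of 40 reads per window. Genes with near-identical copies can share reads, and the sources used here do not say how such reads were treated, so the values of this gene are uncertain.

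The lowest windows held next to no antibody reads over inputs of ordinary depth or more. CTD-2653M23.2 (chromosome 5, 36876659 to 36878759), 270 kb from SLC1A3, held 0 and 3 H3K9me3 reads in migrated and 0 and 3 in non-migrated cells, beside 45 and 107, and 12 and 111, input reads (log2 -4.08 ± 0.45, adjusted p = 3.81e-08 by limma). RP11-438D8.2 on chromosome 3 (141085879 to 141087979) held 0 and 0 in migrated and 0 and 8 in non-migrated cells, beside 27 and 101, and 17 and 100 (log2 -4.15 ± 0.49). RP11-383J24.5 on chromosome 8 (125484979 to 125487079), 11.7 kb from RNF139, held 0 and 3, and 0 and 2, beside 34 and 81, and 24 and 84 (log2 -4.05 ± 0.44). Every H3K9me3 library lay under every input in these 3 windows. For set 1 this says little, because its H3K9me3 libraries were shallow. Their median window held 1 read in migrated and 3 in non-migrated cells, beside 17 and 10 input reads. RP11-697K23.1 on chromosome 3 and RP11-486A14.2, 62.4 kb from the ubiquitin-conjugating enzyme gene UBE2N on chromosome 12, had log2 -4.12 ± 0.48 and -4.09 ± 0.49. The size of such values depends on the 0.5 read added to each count, and the call by limma was made on the same values.

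Of the 5 lowest near windows, 4 lay beside known protein-coding genes. Most near windows did, as the nearest other-named window was that of a RefSeq protein-coding gene for 344 of all 472. RP11-309L24.2 (chromosome 7, 128502580 to 128504680), which overlaps a window of KCP, held 0 and 0 H3K9me3 reads in migrated and 0 and 5 in non-migrated cells, beside 25 and 82, and 22 and 106, input reads (log2 -4.37 ± 0.49, adjusted p = 4.19e-08 by limma). RP11-998D10.4 on chromosome 14, which overlaps a window of the zinc finger gene ZNF219, had log2 -3.76 ± 0.50 and 0 and 0, and 0 and 1, H3K9me3 reads. RP11-867G23.2 on chromosome 11 overlaps a window of KLC2, a kinesin light chain gene, and had log2 -3.24 ± 0.45. RP11-445H22.4 on chromosome 20, 1.79 kb from the potassium channel gene KCNK15, had log2 -3.40 ± 0.43. The fifth, LINC00449 on chromosome 13, lay 2.18 kb from a window of AL139035.1 and held 0 and 1 H3K9me3 reads in migrated and 0 and 3 in non-migrated cells, beside 21 and 53, and 8 and 42, input reads (log2 -3.29 ± 0.48).

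LINC windows were enriched more often than clone-named ones. Of 192 LINC windows tested, 59 (30.7%) were enriched and 31 (16.1%) lower, with a median log2 of 0.32. Of 5005 RP windows, 21.9% were enriched and 23.4% lower (median 0.08), and of 603 CT windows, 25.9% and 24.4% (median 0.16). The split by distance did not hold for LINC windows, where 51 of 173 far (29.5%) and 8 of 19 near windows (42.1%) were enriched, with medians of 0.30 and 0.49. It held for RP windows (22.8% of far, 11.5% of near) and CT windows (26.7% of far, 15.6% of near). The 19 near LINC windows are few, and both LINC00273 windows are among them. Windows described as a protein or otherwise had a lower level, with 40 of 213 enriched (18.8%), 79 lower (37.1%) and a median of -0.40.

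LINC genes whose transcripts have been described in some detail were split. From a list of 25 such genes, 10 were in the tables and 9 had tested windows, 12 in all, of which 4 were enriched and 5 lower, with a median log2 of -0.72; of all tested windows 15.8% were enriched and 35.2% lower. LINC00261, a transcript beside the endoderm factor gene FOXA2, was enriched (log2 1.75 ± 0.41, adjusted p = 7.05e-04 by limma), with 1 and 79 H3K9me3 reads in migrated and 7 and 74 in non-migrated cells, beside 12 and 23, and 2 and 27, input reads. LINC00460, studied in several tumours, had log2 1.65 ± 0.38 and LINC00299 had 0.85 ± 0.34, and both passed. LINC00461, host of a microRNA of the nervous system, was split over its 4 windows, with log2 1.90 ± 0.35 in an enriched one, -1.21 ± 0.39 and -1.18 ± 0.41 in 2 lower ones and -0.64 ± 0.43 in the other, which did not pass. LINC00467 (-2.77 ± 0.47), LINC00338 (-1.91 ± 0.44) and LINC00346 (-1.64 ± 0.47) were lower.

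A chosen list of noncoding genes that carry a name of another kind lay further down. From a list of 50 such genes, 26 were in the tables with 60 tested windows, of which 3 were enriched and 33 lower, with a median log2 of -1.06. MALAT1, an abundant nuclear RNA, had log2 -2.76 and CRNDE -3.43 and -3.38 in its 2 windows. The 3 enriched windows belonged to MEG3 (1.56) and MEG8 (0.74 and 0.71), both of the imprinted cluster on chromosome 14. The list does not stand for all such genes. The 524 tested other-named windows of RefSeq long noncoding RNAs had a median of -0.47, with 17.6% enriched and 37.6% lower. None of these windows are members, and the list was not tested against the members.

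Windows of 1 gene often differed in call, mostly between called and not called. Of 1145 genes with 2 or more tested windows, 96 had all of them enriched, 231 had all of them lower and 293 had none called. Another 46 had both enriched and lower windows. In the rest some windows were called and others not, which need not mean a difference in level. The same counts were not made for genes with other names. Of the 243 genes with 3 or more, 12 had all enriched, and in 99 the windows spanned over 2 on the log2 scale. CTD-2337A12.1 on chromosome 5 had the most tested windows, 10, with log2 between -1.08 and 0.98, 1 of them enriched and 1 lower. RP11-23D24.2 on chromosome 3 had 8 windows between 0.41 and 1.60, of which 5 were enriched. RP11-280F2.2 had 8 between -2.98 and 0.86, with 2 lower, and RP11-613M10.9 had 8 between -2.75 and 0.58, with 4 lower. LINC00221 on chromosome 14 had 7 between 0.14 and 2.28, with 2 enriched. A gene name was thus not enough to give a level, and RP11-566K11.2 showed it at short range on chromosome 16, with log2 0.77 ± 0.25 at 90001322 to 90003422 (adjusted p = 0.0118 by limma) and -3.14 ± 0.46 at 89988970 to 89991070.

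The levels of members and their nearest other-named windows were most alike at short range. Across 87 overlapping pairs, which share reads, Pearson's r was 0.82, and across 344 pairs up to 5 kb apart it was 0.53. It was 0.27 for 2277 pairs at 5 to 50 kb, 0.25 for 2273 at 50 to 250 kb and 0.17 for 696 beyond 250 kb. These are descriptions across windows of the same libraries. When an overlapping member was enriched, its partner was enriched in 10 of 12 cases, and at up to 5 kb in 17 of 44 (38.6%). In the 3 wider classes this share was 32.3%, 33.1% and 36.2%, so beyond overlap it differed little by gap. Of all tested windows 15.8% were enriched and 35.2% lower. When a member up to 5 kb away was lower, its partner was lower in 88 of 129 cases (68.2%). In the wider classes the partner of a lower member was lower in 46.8%, 41.0% and 30.3% of cases. Among near members without overlap, those on the strand opposite to the nearest window had a median of -0.65 (n = 195) and those on its strand one of -0.46 (n = 149).

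Members were spread unevenly over the genome. They made up 30.7% of the windows on chromosome 5 (612 windows) and 27.6% on chromosome 8 (460 windows), but 0.838% on chromosome 19 (14 windows) and 28 windows in all on chromosome 2. On chromosome 19, 9 of the 14 were enriched, 7 of these among the 9 tested between 12000001 and 13000000, where zinc finger genes also lie, with a median log2 of 1.83 there. These 9 windows belong to 5 genes. Of the enriched ones, 4 belong to CTD-2006C1.2, which is described as an uncharacterised protein, with log2 between 1.77 and 1.98. Members whose nearest tested neighbour was a zinc finger gene by its symbol were enriched in 33 of 93 cases (35.5%), where 22.6% of all tested members and 15.8% of all windows were, with a median of 0.32. Of 218 stretches of 1 Mb with at least 5 member genes, 68 had no enriched member and 8 had at least 75% of their members enriched. These 8 were picked out after their values were seen. The 3 adjoining stretches from 126000001 to 129000000 on chromosome 12 held 7 enriched of 9 tested members, 8 of 10 and 7 of 9, with 0 lower, and the stretch that starts at 133000001 held 7 of 8. The others started at 1000001 on chromosome 5 (7 of 8), 38000001 on chromosome 10 (6 of 7), 95000001 on chromosome 15 (4 of 5) and 12000001 on chromosome 19. Other-named windows there were often enriched too, 12 of 20 from 133000001 and 2 of 3 each from 127000001 and 128000001 on chromosome 12. On chromosomes 5, 10 and 19 they were in 6 of 14, 3 of 10 and 13 of 38 cases. The stretches from 126000001 on chromosome 12 and on chromosome 15 held no tested other-named window.

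The windows with the most H3K9me3 reads belonged in part to the same genes as those with the highest ratio. LINC00273 and RP11-340I6.7 stand among both, each with a different window. The 2 windows of RP11-340I6.7, at 63359119 to 63361219 and 63359201 to 63361301, overlap almost fully and share most reads. RP3-410C9.1 (chromosome 20, 26188814 to 26191869) led with 82 and 1615 reads in migrated and 108 and 1142 in non-migrated cells, beside 109 and 399, and 37 and 459, input reads (log2 2.33 ± 0.13). As at LINC00273, its inputs lay far above the median window, and whether it shares reads with near-identical copies was not tested, so the value is uncertain. RP11-308B16.2 on chromosome 5 (12572969 to 12575069) held 16 and 445, and 31 and 415, beside 25 and 120, and 23 and 150, input reads (log2 2.10 ± 0.20). Chromosome 5 held most of the next ones, among them CTD-2194D22.2, 23.4 kb from IRX4, with 17 and 369, and 18 and 387, H3K9me3 reads (log2 2.29 ± 0.25), and CTD-2134P3.1 with 8 and 347, and 17 and 353 (log2 1.37 ± 0.23). Their set 2 inputs, between 120 and 155 reads, were also well above the median of 40 for windows of those libraries.

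The series compares migrated with non-migrated cells, and no clone-named or LINC window passed the test of a change between them. By limma, 0 of 5800 members changed, as did 0.0% of all windows, and the quasi-Poisson model also called 0. At an unadjusted p under 0.05 there were 215 members (3.71%) by limma, where 3.52% of all windows fell under it, and 356 by the quasi-Poisson model. The median log2 change, migrated over non-migrated and corrected for input, was 0.05 for far and -0.03 for near members, against -0.01 for all windows. It was -0.09 in set 1 and 0.05 in set 2 for far members, and 0.10 in set 1 and -0.10 in set 2 for near members, so its sign differed between the sets. Fits without 1 library made calls in places, where 1 library stands alone for its group and is assumed to vary like the others. Calls were most numerous without an H3K9me3 library of set 2, which leaves a shallow library of set 1 alone. Fewer came without an H3K9me3 library or an input of set 1, which leaves a deeper library of set 2 alone.

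Enriched members were counted in each fraction too. In migrated cells 1059 members were enriched, where 12.9% of all windows were, and 1078 were lower, where 28.3% were. In non-migrated cells 654 were enriched, where 8.41% of all windows were, and 875 were lower, where 23.6% were. In both fractions 531 were enriched, where 7.06% of all windows were. As shares of tested members these are 18.3% enriched in migrated and 11.3% in non-migrated cells, and calls over all windows were also more numerous in migrated cells. A larger number of calls in a fraction is not a test of a difference.

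In pooled reads, far members took a share of H3K9me3 reads over input that was 0.981-fold in migrated relative to non-migrated cells of set 1 and 1.04-fold in set 2. Near members stood at 1.14-fold in set 1 and 0.981-fold in set 2. Both lay above 1 in one set and below it in the other. By gap, members at 5 to 50 kb stood at 0.983-fold and 0.988-fold in sets 1 and 2, those at 50 to 250 kb at 0.970-fold and 1.05-fold, and those over 250 kb at 1.05-fold and 1.13-fold. Near members that overlap an other-named window stood at 1.34-fold and 1.06-fold, and those up to 5 kb away at 1.08-fold and 0.958-fold. No test was made of these shares.

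The windows with the smallest p for a change did not pass, and their adjusted p was 0.999 by limma. RP3-410C9.1, given above, had log2 2.73 over input in migrated and 1.93 in non-migrated cells, and the second LINC00273 window had 2.82 and 2.10. RP11-740P5.2 on chromosome 1 held 5 and 179 H3K9me3 reads in migrated and 14 and 173 in non-migrated cells, beside 9 and 56, and 15 and 104, input reads. Its H3K9me3 reads hardly differed between fractions in set 2, and its input reads did. In the other direction, RP11-34F13.3, 5.95 kb from SKOR1 on chromosome 15, held 0 and 1 in migrated and 7 and 14 in non-migrated cells, beside 28 and 81, and 21 and 87. RP11-159F24.1, 40.9 kb from PAIP1 on chromosome 5, held 0 and 2, and 4 and 11, beside 50 and 77, and 18 and 62. CTD-2203K17.1, 445 kb from ADAMTS12 on chromosome 5, held 0 and 0, and 1 and 10, beside 28 and 135, and 19 and 134. In these 3 windows the H3K9me3 reads were fewer in migrated cells of both sets, from low numbers in both fractions. RP3-410C9.1, RP11-34F13.3, RP11-159F24.1 and CTD-2203K17.1 each passed in 1 or 2 fits without a library (adjusted p between 0.00385 and 0.0411 by limma).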

How the data were processed

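Libraries from migrated and non-migrated SiHa cells were made in 2 sets; replicate numbers were taken from the titles, and for 1 library of set 1 (H3K9me3 of migrated cells) the description gives another number. Reads were handled with Bowtie2 2.2.9, SAMtools 1.3 and FastQC 0.11.5 and placed on hg19, per the submitters' processing notes; how reads were counted per window is not given here. The deposited tables hold log2 values per window, per the file headers. Each value was the log2 of a whole read number plus 1 constant per library, with 0 reads entered as log2 of 0.9, and 100% of values were whole within 0.01 once the constant was removed. Most windows span 2100 bases.

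Limma 3.58.1 in R 4.3.3 was fitted to log2 of these recovered reads plus 0.5, with voom precision weights and TMM scaling (own code), over the 36440 windows that had the equivalent of 10 reads in at least 2 libraries and a total of at least 15. The model held set, ChIP, set by ChIP, fraction and fraction by ChIP (2 residual and 33.1 prior degrees of freedom), and each contrast was fitted as its own coefficient. P-values were adjusted by Benjamini-Hochberg over all windows at 0.05. The reference library that the TMM rule picked was the shallow migrated H3K9me3 library of set 1, and other filters picked set 2 libraries, with the median of all windows then between -0.07 and -0.04. The series describes paired sets, so the set was a block. Over the 36440 windows, the 2 fractions of a set deviated together from the means of their groups, with r = 0.15 among H3K9me3 and 0.47 among input libraries. Without the replicate block 1295 members were enriched and 0 changed between fractions.

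Gaps run between window edges on either strand. The rule for named windows took 1 window per gene, the most extreme: 10 far and 6 near enriched ones with log2 above 0 in all 4 library pairs and on average 10 or more input reads, 5 far and 5 near lower ones with at least 20 input reads, and the 3 smallest p per direction for a change. It also took the 5 genes with the most windows and members among the 20 with the most H3K9me3 reads. The members, lists and tests were chosen with earlier results of these data known. The statistics were tested on simulated data. Neighbour types and promoter sequences came from RefSeq by symbol. Sequences of the hg19 windows themselves were not used here.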

Additional observations from a re-analysis of the deposited data

How the results depend on the processing

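The far median stayed above the near median in every setting tried, and of 472 pairs of a named window and a setting 468 kept their call and 4 lost it, all in set 1 alone. With the authors' constants in place of TMM, 71 members were enriched (62 far, 9 near) and 2300 lower (2030 far, 270 near). The median change between fractions was then -0.91 for far and -0.91 for near members, against -0.94 for all windows. The median log2 of H3K9me3 over input of all windows moved to -1.30 by the constants' own construction. With 1 window per gene, 749 members were lower (642 far, 107 near). A border of 2 kb gave 31 enriched and 104 lower near members, and one of 10 kb gave 104 and 295. With only RefSeq protein-coding neighbours, 27 near members were enriched and far minus near was 0.96. Set 2 alone, added after the data were seen, gave 2602 enriched members (2473 far, 129 near). Set 1 alone, also added, gave 46 enriched (40 far, 6 near) and 76 lower (60 far, 16 near) and far minus near of 0.57, and its depth left 1539 far and 111 near members to test. The cause of the other shifts was not tested.

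Fits without 1 library ranged over 715 to 2064 enriched members (679 to 1980 far, 36 to 84 near), 816 to 1379 lower members (712 to 1221 far, 104 to 176 near) and 0.59 to 0.86 for far minus near (0.78 with all libraries). Members changed between fractions ranged over 0 to 277, and their median change over -0.15 to 0.12 for far and -0.10 to 0.14 for near members. Without the replicate block, 1237 far and 58 near members were enriched, 1116 far and 164 near were lower, and far minus near was 0.72. A contrast of coefficients with approximate errors, added later, called 17.2% of far and 10.3% of near members enriched. Median-of-ratios scaling, no filter, no precision weights, the quasi-Poisson model, the usual width alone and members without overlap kept these counts within 1.5 times. The migrated H3K9me3 library of set 1 held a median of 1 read per window, which limits the precision of a change between fractions in a single window.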
